A study of Mus musculus with 46 samples.

Results

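The genes described here are the collagen genes of the mouse, taken as every protein-coding gene of the expression table whose symbol has the form Col, a number, the letter a and a number. Of 48795 genes in the table, 21772 of them protein-coding, 44 had such a symbol. A collagen was counted as expressed where its mean was at least 0.5 FPKM in at least 1 of the 8 sample groups. FPKM counts the sequenced fragments of a gene relative to the length of its transcript and to all mapped fragments of the sample, so levels can be compared between genes on this scale. By this measure 33 of the 44 collagens were expressed: 10 of 11 fibrillar, 4 of 6 basement membrane and 19 of 27 other collagens. Basement membrane collagens were taken as the chains of collagen IV alone, and Col15a1 and Col18a1 were counted among the others. The expressed gene nearest to the limit was Col28a1 with a highest group mean of 0.583 FPKM, and the nearest below it was Col25a1 with 0.471 FPKM. Below the limit in every group were Col2a1, Col4a3, Col4a4, Col9a1, Col9a2, Col10a1, Col17a1, Col19a1, Col20a1, Col25a1 and Col26a1.

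RNA was sequenced from 46 samples of the MC-38 model, a transplantable mouse colon carcinoma line that grows as a tumor under the skin of C57BL/6 mice. There were 3 samples of cultured MC-38 cells, 3 baseline tumors, and 5 tumors each after isotype control or PD-1 Ab (muDX400, 5 mg/kg, injected into the peritoneum) at day 11 after implantation with 1 dose and at day 15 with 2 doses. A separate study held 10 tumors from mice labelled PD-1cKO and 10 from littermates labelled WT, and both groups received tamoxifen at 40 mg/kg on 5 consecutive days. The PD-1cKO mice carry a tamoxifen-inducible Cre in the ubiquitously active Rosa26 locus and a Pdcd1 gene whose exons 2 and 3 are flanked by loxP sites, so that deletion is not limited to T cells. Mice were female C57BL/6NTac of 8 to 10 weeks in the methods of the study, which place the PD-1cKO tumors at day 22, whereas the labels state 28 days. The labels do not give the day of the baseline tumors. They also do not state whether the 3 cultures were grown separately, and p-values then measure only the spread between these samples.

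Collagens are secreted proteins of 3 chains wound into a triple helix. Fibrillar collagens form the cables of connective tissue, and collagen I, made of Col1a1 and Col1a2 chains, and collagen III, made of Col3a1 chains, are mostly products of fibroblasts. Collagen IV forms the sheet-like network of basement membranes beneath epithelia and around blood vessels, and collagen VI forms beaded filaments between fibrils. In tumors these proteins make up much of the stroma that immune cells have to cross.

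The values per sample carry no sequencing depth, so precision is the spread between replicates. Pdcd1 itself, the target of the deletion, had 1.71 to 7.02 FPKM (median 3.01) in the 10 WT tumors and 5.05 to 19.9 FPKM (median 8.29) in the 10 tumors labelled PD-1cKO. A value over the whole gene does not separate the floxed exons and therefore does not check the genotype. Since it was higher, not lower, the group is called by its label throughout. The study itself reported, by flow cytometry at day 22, that very few tumor T cells of PD-1cKO mice carried PD-1, unlike those of WT mice. It is not stated whether the tumors sequenced here were among those stained. Short noncoding RNAs took 30.2 to 66.5% of summed FPKM in the 20 tumors of this study and at most 0.0817% in all other samples, so no level is tested across the studies, and levels set side by side across them carry this difference. Replicate 1 of the isotype group at day 11 had 54.6% of its FPKM on mitochondrial genes, against 2.89 to 7.65% in the other 25 samples outside the PD-1cKO study. In cultured cells, markers of fibroblasts summed to 119 to 121 FPKM and markers of endothelium to 4.69 to 5.44 FPKM. Some fibroblast markers were thus expressed in culture, such as Pdgfra (mean 37.0 FPKM) and Pdpn (39.7 FPKM). Epithelial markers summed to only 0.658 to 0.793 FPKM in cultured cells, with the intestinal factor Cdx2 at 0 in every sample.

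Promoters of 5 collagens are shown because they belong to genes whose values carry the comparisons. They were taken from RefSeq on build GRCm38.p6 as 250 bases before and 50 bases after the annotated start, and 35 of the 44 collagens had an entry. Col4a1 and Col4a2 lie head to head on chromosome 8, with starts 21 bases apart in GENCODE, and their windows share the stretch of 78 bases in capitals, which each line gives on its own strand.

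Col4a1, chr8:11312777-11313076, minus strand: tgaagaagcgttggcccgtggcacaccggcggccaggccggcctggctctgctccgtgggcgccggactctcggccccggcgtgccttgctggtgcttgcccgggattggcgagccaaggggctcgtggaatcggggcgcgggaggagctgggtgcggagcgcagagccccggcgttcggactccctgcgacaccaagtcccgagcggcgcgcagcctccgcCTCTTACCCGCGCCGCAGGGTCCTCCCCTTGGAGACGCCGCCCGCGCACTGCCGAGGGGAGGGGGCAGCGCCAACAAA
Col4a2, chr8:11312555-11312854, plus strand: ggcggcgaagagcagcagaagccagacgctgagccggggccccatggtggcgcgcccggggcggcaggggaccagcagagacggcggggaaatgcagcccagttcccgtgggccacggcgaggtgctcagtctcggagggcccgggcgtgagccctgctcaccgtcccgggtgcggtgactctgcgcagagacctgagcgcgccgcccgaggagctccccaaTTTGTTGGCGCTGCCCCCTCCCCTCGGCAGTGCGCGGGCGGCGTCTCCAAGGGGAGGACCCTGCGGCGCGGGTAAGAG

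The 3 other promoters belong to Col1a2 and Col3a1, which with Col1a1 had the highest levels among the fibrillar collagens in each tumor group, and to Col8a2, a chain of short-chain network collagen that was barely detectable in culture. Capitals mark matches on either strand to the CCAAT box, to a GC box spelled GGGCGG and to a TATA box spelled TATAAA.

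Col1a2, chr6:4505368-4505667, plus strand: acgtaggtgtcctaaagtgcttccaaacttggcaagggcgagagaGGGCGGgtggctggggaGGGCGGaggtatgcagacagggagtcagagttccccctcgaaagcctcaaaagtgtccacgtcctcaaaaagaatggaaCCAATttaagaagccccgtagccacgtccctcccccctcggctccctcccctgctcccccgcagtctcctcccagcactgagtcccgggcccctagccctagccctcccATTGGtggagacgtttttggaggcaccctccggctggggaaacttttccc
Col3a1, chr1:45311288-45311587, plus strand: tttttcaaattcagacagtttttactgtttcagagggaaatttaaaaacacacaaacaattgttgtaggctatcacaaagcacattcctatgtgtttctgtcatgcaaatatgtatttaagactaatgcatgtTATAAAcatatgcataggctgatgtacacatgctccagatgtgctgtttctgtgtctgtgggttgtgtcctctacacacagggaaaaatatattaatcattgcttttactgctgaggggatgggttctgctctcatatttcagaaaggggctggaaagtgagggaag
Col8a2, chr4:126286544-126286843, plus strand: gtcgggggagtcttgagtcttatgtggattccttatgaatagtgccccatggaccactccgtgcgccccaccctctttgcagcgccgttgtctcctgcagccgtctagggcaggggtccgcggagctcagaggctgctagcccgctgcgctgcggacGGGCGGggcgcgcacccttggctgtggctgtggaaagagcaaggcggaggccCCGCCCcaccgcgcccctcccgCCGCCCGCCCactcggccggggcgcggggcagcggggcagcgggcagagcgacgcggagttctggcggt

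The CCAAT box occurred in 37.4% of all 32851 promoter windows and in 13 of 38 collagen windows. The GC box occurred in 35.7% of all windows and in 23 of 38 collagen windows (60.5%), and the TATA box in 13.6% of all and in 5 of 38. Counted from the RefSeq start, which for Col1a2 lies within the GENCODE span of the gene, Col1a2 held the CCAAT box 109 bases before its start and again at the start itself on the other strand, and the GC box at 205 and 188 bases before it, Col3a1 held the TATA box at 117 bases, and Col8a2 held the GC box at 93, 41, 19 and 15 bases. Such matches are counts of letters and not evidence of a bound factor. No promoter entry was at hand for Col12a1, Col14a1, Col1a1, Col22a1, Col26a1, Col2a1, Col4a3, Col5a2 and Col9a3.

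The levels of the 33 collagens in the 8 groups came first. Over the 43 tumors pooled, the 6 highest collagens were Col3a1, Col1a1, Col1a2, Col6a1, Col6a3 and Col6a2, with means of 1102, 753, 600.3, 424, 322.9 and 316.4 FPKM. The order differed by group. Col3a1 was highest in each tumor group, but the pooled mean of Col1a2 rested on the tumors labelled PD-1cKO (1627 FPKM), and it was 85.1 FPKM in baseline and 183.2 FPKM in isotype tumors of day 15, below Col6a1 (492.9 and 444.1 FPKM), Col6a2 (368.2 and 339.3 FPKM) and Col6a3 (322.5 and 214.1 FPKM). In GENCODE M21 on GRCm38, Col3a1 (ENSMUSG00000026043) spans chr1:45311538-45349706, Col1a1 (ENSMUSG00000001506) chr11:94936224-94953042 and Col1a2 (ENSMUSG00000029661) chr6:4504814-4541544, all on the plus strand, so that the chains of collagen I come from separate chromosomes. Col14a1 (ENSMUSG00000022371) spans chr15:55307750-55520803 and Col8a2 (ENSMUSG00000056174) chr4:126286793-126314330, also on the plus strand.

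**Figure D1:**
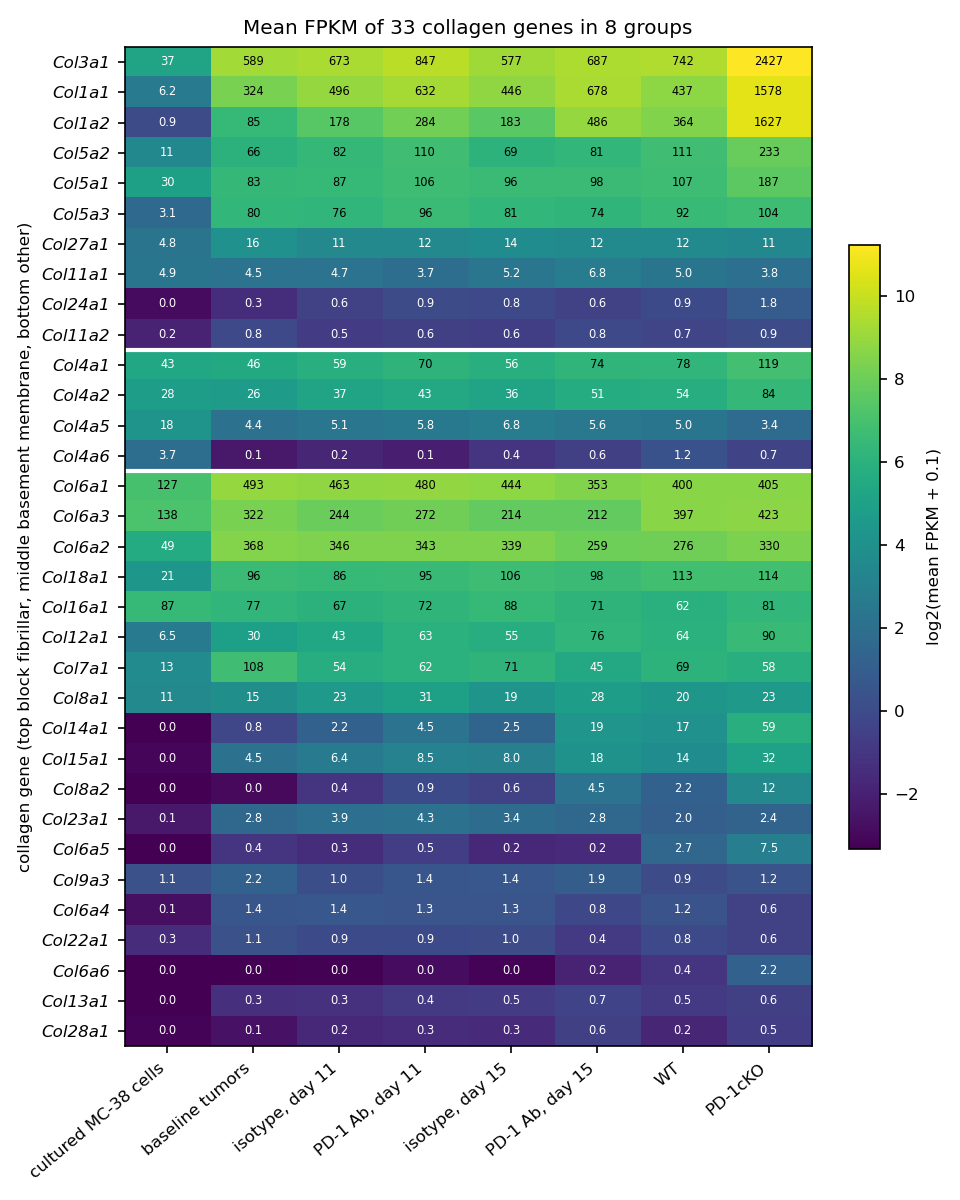
Mean FPKM of the 33 expressed collagens (rows) in the 8 groups (columns), with the mean printed in each cell and color showing log2(mean FPKM + 0.1). Fibrillar collagens are at the top, basement membrane collagens in the middle and all others at the bottom; Col3a1, Col1a1 and Col1a2 run from 36.6, 6.24 and 0.943 FPKM in cultured cells to 2427, 1578 and 1627 FPKM in tumors labelled PD-1cKO.

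The comparison of isotype tumors at day 15 with cultured cells asked which collagens MC-38 cells make alone and which appear in the tumor. Cultured cells had little collagen I RNA and much collagen VI. Col1a1 was 6.24, 7.00 and 5.48 FPKM in the 3 cultures and 388.9, 614.2, 321.2, 406.4 and 496.7 FPKM in the 5 tumors. Col1a2 was 0.864, 1.04 and 0.925 FPKM in the cultures and 178, 339, 113.1, 121 and 164.7 FPKM in the tumors. All 5 tumors lay far above all cultures for both chains of collagen I, by 6.11 (SE 0.19, adjusted p = 1.28e-08) for Col1a1 and by 7.34 (SE 0.31, adjusted p = 9.42e-08) for Col1a2 on the log2(FPKM + 0.1) scale. Col3a1 was already present in culture at 36.89, 37.96 and 35.07 FPKM, and it was 484.9, 904.2, 354, 556.4 and 586.6 FPKM in the tumors. It rose by 3.91 (SE 0.25, adjusted p = 1.43e-06).

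By limma with Benjamini-Hochberg adjustment over all genes, 21 of the 29 collagens tested passed an adjusted p under 0.01, 19 higher and 2 lower in tumors. Over all 15199 genes tested 37% passed, 20.2% as higher and 16.8% as lower. Of the 19 higher, 13 had a mean over the 0.5 FPKM filter in both groups, while Col15a1, Col14a1, Col23a1, Col6a4, Col8a2 and Col24a1 reached it only in tumors, where they had to be the higher, and of the 2 lower, Col4a6 reached it only in culture. The 19 and 2 are therefore a description and not support for a direction. The median log2 difference was 2.32 over the collagens and -0.11 over all genes. Of the fibrillar collagens 8 of 10 rose, and of the others 11 of 15. Beside Col1a2 and Col1a1, the third of the called collagens by size was Col15a1, a collagen of the basement membrane zone, at 0.041, 0 and 0.0074 FPKM in culture and 5.69 to 11.0 FPKM (median 8.32) in tumors. Its log2 difference was 6.10 (SE 0.24, adjusted p = 5.76e-08).

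Basement membrane collagens, as the chains of collagen IV, gave smaller or opposite differences. Col15a1 and Col18a1, counted among the other collagens, rose by 6.10 and 2.32. Col4a1 was 42.2, 44.8 and 42.0 FPKM in culture and 56.2, 70.2, 42.2, 53.5 and 59.4 FPKM in the tumors, and Col4a2 was 27.7, 29.1 and 26.3 FPKM in culture and 36.3, 42.9, 28.0, 35.9 and 39.4 FPKM in the tumors. Of the 5 tumors 4 were above every culture for each gene, and neither passed, with log2 differences of 0.37 (95% interval 0.05 to 0.69, adjusted p = 0.0521) and 0.38 (0.09 to 0.67, adjusted p = 0.0316). The X-linked chains went the other way. Col4a5 was 18.6, 18.7 and 17.8 FPKM in culture and 7.70, 9.20, 3.48, 7.08 and 6.76 FPKM in tumors, and Col4a6 was 3.77, 3.66 and 3.62 FPKM in culture and 0.289, 0.296, 0.0924, 1.01 and 0.145 FPKM in tumors. Both fell in all 5 tumors, by 1.48 (SE 0.27, adjusted p = 0.00146) and by 3.31 (SE 0.50, adjusted p = 0.0005) on the log2 scale. Like Col4a1 and Col4a2, these genes lie head to head, with starts 1309 bases apart on the X chromosome.

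Collagen VI was the main collagen of cultured cells. Col6a1 was 128.3, 134 and 119.1 FPKM, Col6a2 was 50.9, 50.9 and 45.0 FPKM and Col6a3 was 135.8, 144.8 and 133.8 FPKM in the 3 cultures. In the 5 tumors Col6a1 was 417.2, 580, 313.9, 457.7 and 451.7 FPKM, Col6a2 was 326.3, 413.7, 249, 356.5 and 351.1 FPKM and Col6a3 was 208.4, 264.3, 169.1, 232.2 and 196.5 FPKM. All 3 genes rose, Col6a2 by 2.78 (adjusted p = 4.52e-07), Col6a1 by 1.78 (adjusted p = 2.56e-05) and Col6a3 by 0.62 (adjusted p = 0.00437), with all tumors above all cultures. The smallest rise among the called collagens was that of Col6a3. Col16a1, a fibril-associated collagen, was at 83.0 to 89.5 FPKM in culture and at 79.1 to 97.5 FPKM in tumors, a log2 difference of 0.00 (95% interval -0.20 to 0.20). Fibroblast, endothelial and pericyte markers were higher in tumors than in culture for 8 of 10, 7 of 7 and 7 of 7 tested genes, and their part in the collagen differences was not tested. Over all genes 20.2% were higher. Pecam1, Cdh5, Emcn, Tie1, Vwf and Kdr (culture means 0.0055 to 0.0654 FPKM) reached the filter only in tumors. So did Acta2, Tagln, Rgs5, Notch3, Kcnj8 and Des (0.0108 to 0.216 FPKM) and Fap, Lum, Dpt, Thy1 and Pi16 (0 to 0.287 FPKM). All of these had to be the higher in tumors. Bulk RNA cannot tell more cells of a type from more RNA per cell, here or in the comparisons that follow.

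Baseline tumors set against the same cultures gave 22 of 27 collagens called (20 higher, 2 lower), where 39.1% of all genes were called (20.8% higher, 18.3% lower). Of the 20 higher, 6 were over the filter only in tumors, and Col4a6, among the lower, only in culture. Col1a2 (80.0, 110 and 65.8 FPKM), Col1a1 (259.8, 331 and 382.7 FPKM) and Col15a1 (4.58, 4.95 and 3.91 FPKM) again had the largest rises, of 6.32, 5.67 and 5.31, and Col4a5 and Col4a6 fell by 2.05 and 4.25 on the log2 scale. The smallest called rise was 0.38 (adjusted p = 0.00591) for Col8a1. Both comparisons share the 3 culture samples.

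Between baseline tumors and isotype tumors of day 15, limma called 0 of 28 collagens, where 0.628% of all genes passed (0.18% higher, 0.448% lower), and 9 of 28 collagens and 17.7% of all genes had an unadjusted p under 0.05. At an adjusted p under 0.05, where 3.05% of genes passed, 2 collagens were higher at day 15, Col8a2 by 2.47 (adjusted p = 0.0167) and Col12a1, a fibril-associated collagen, by 0.88 (adjusted p = 0.0386). These 2 are named after their values were seen. Col8a2 (baseline mean 0.0301 FPKM) reached the 0.5 FPKM filter only at day 15 and had to be the higher there. From isotype day 11 to isotype day 15, 0 of 28 collagens and 0% of all genes passed, with 0 collagens and 996 genes at an unadjusted p under 0.05.

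Deletion of PD-1 was examined next, by comparing the tumors labelled PD-1cKO with the WT tumors. Fibrillar collagens were higher, and 6 of 10 rose: both chains of collagen I, Col3a1, Col5a1 and Col5a2 of the fibril-nucleating collagen V, and Col24a1. Both broadly expressed basement membrane chains, Col4a1 and Col4a2, rose less, and 3 of 19 other collagens rose (Col6a6, Col8a2 and Col14a1) while Col6a4 fell. Collagen VI proper, Col6a1, Col6a2 and Col6a3, did not pass. The 12 called collagens are of 33 tested, where 21.3% of all 15075 genes were called; for the 11 that rose, the share of all genes called as higher was 8.78%, and for Col6a4 the share called as lower was 12.6%. Of the 11, 10 were over the 0.5 FPKM filter in both groups, and Col6a6 reached it only in tumors labelled PD-1cKO (mean 2.16 FPKM, WT 0.357 FPKM), the group where it then had to be higher. With a 2-fold limit added, 6 collagens were higher, where 4.2% of all genes were.

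Col1a1 ranged from 248.9 to 651 FPKM (median 426.4) in WT tumors and from 644.3 to 3204 FPKM (median 1061) in tumors labelled PD-1cKO. Only the lowest of the 10 tumors labelled PD-1cKO lay within the WT range. Col1a1 rose from 436.6 ± 122.5 to 1578 ± 940.9 FPKM (mean ± SD, n = 10 each), a log2 difference of 1.68 (SE 0.28, adjusted p = 7.26e-04).

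Col1a2 ranged from 201.4 to 593.1 FPKM (median 340.6) in WT and from 566.6 to 3558 FPKM (median 1048) in tumors labelled PD-1cKO, with 9 of 10 above every WT tumor. The means were 363.6 ± 130.7 and 1627 ± 1129 FPKM. The difference of 1.94 (SE 0.33, adjusted p = 7.26e-04) was the largest among the collagens. Col3a1 ranged from 455 to 961.2 FPKM (median 725.7) in WT and from 885.3 to 5379 FPKM (median 1672) in tumors labelled PD-1cKO, again with 9 of 10 above every WT tumor. It rose by 1.48 (SE 0.29, adjusted p = 0.00147).

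Col5a1 ranged from 58.1 to 127.6 FPKM (median 111) in WT and from 124.2 to 274.4 FPKM (median 180.1) in tumors labelled PD-1cKO. Col5a2 ranged from 77.2 to 148.9 FPKM (median 106.0) and from 114.3 to 439 FPKM (median 200.1). Of the 10 tumors labelled PD-1cKO, 9 and 8 were above every WT tumor. The log2 differences were 0.78 (SE 0.17, adjusted p = 0.00215) and 0.97 (SE 0.22, adjusted p = 0.0029). Col24a1, a minor fibrillar collagen, ranged from 0.420 to 1.36 FPKM (median 0.841) and from 0.873 to 4.04 FPKM (median 1.67), with 7 of 10 above every WT tumor and a log2 difference of 0.91 (SE 0.25, adjusted p = 0.0081). Col5a3, the other chain of collagen V, differed by 0.17 (95% interval -0.22 to 0.57).

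**Figure D2:**
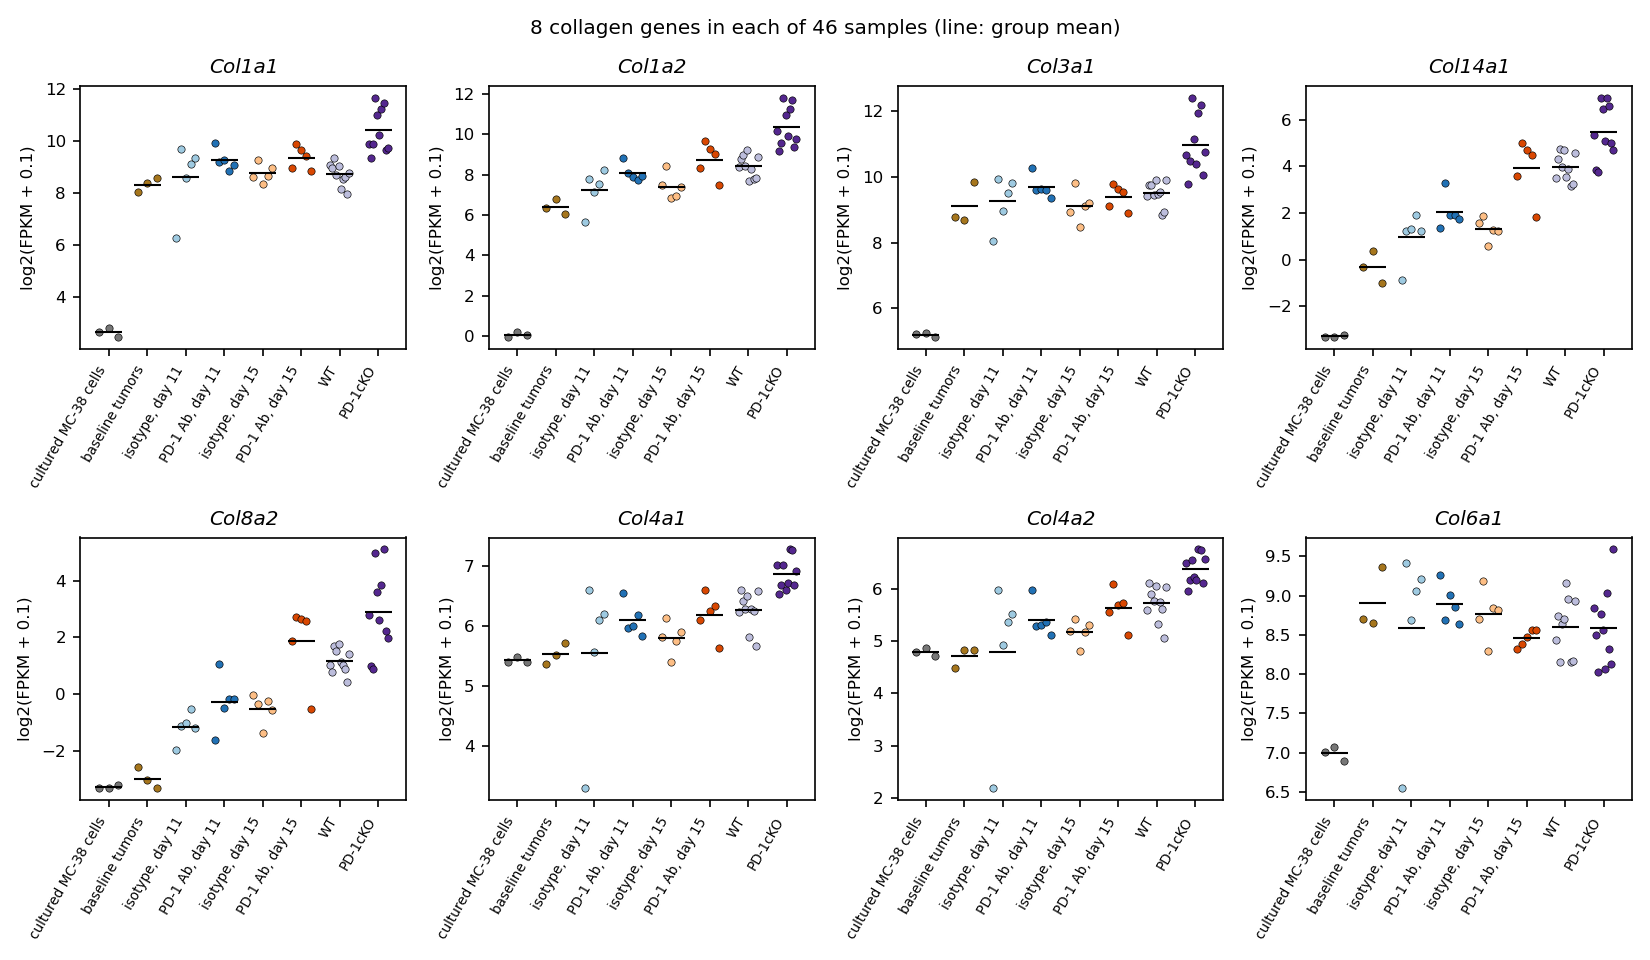
log2(FPKM + 0.1) of 8 collagens in each of the 46 samples, by group, with a line at the group mean. For Col1a1, Col1a2 and Col3a1 the tumors labelled PD-1cKO spread upwards from the top of the WT range, 9 of 10 lying above every WT tumor, whereas Col6a1 overlaps between all tumor groups and the lowest isotype tumor of day 11 is replicate 1.

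Col4a1 ranged from 50.9 to 96.5 FPKM (median 77.8) in WT and from 92.6 to 154.4 FPKM (median 112.8) in tumors labelled PD-1cKO. Col4a2 ranged from 33.4 to 69.2 FPKM (median 54.2) and from 62.4 to 108 FPKM (median 82.4). The groups overlapped at the edge only, with 9 and 8 of 10 tumors labelled PD-1cKO above every WT tumor, and the differences were 0.61 (SE 0.13, adjusted p = 0.00247) and 0.65 (SE 0.14, adjusted p = 0.00225). Col4a5 and Col4a6 had log2 differences of -0.65 (adjusted p = 0.024) and -0.81 (adjusted p = 0.115). The median log2 difference was 0.84 over the 10 fibrillar, -0.02 over the 4 basement membrane and 0.25 over the 19 other collagens, beside -0.20 over all genes.

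Among the other collagens, Col8a2 ranged from 1.24 to 3.30 FPKM (median 2.02) in WT and from 1.76 to 34.2 FPKM (median 6.44) in tumors labelled PD-1cKO, 8 of 10 above every WT tumor. It rose by 1.74 (SE 0.45, adjusted p = 0.00545). Col14a1, a fibril-associated collagen, ranged from 8.72 to 26.8 FPKM (median 15.2) and from 13.5 to 122.7 FPKM (median 37.0), 7 of 10 above every WT tumor. It rose by 1.51 (SE 0.39, adjusted p = 0.00566).

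The collagen VI-type chains differed among themselves. Col6a6 was low in both groups, at 0.0197 to 0.663 FPKM (median 0.346) in WT and 0.328 to 6.01 FPKM (median 0.885) in tumors labelled PD-1cKO, with 6 of 10 above every WT tumor and a log2 difference of 1.81 (SE 0.50, adjusted p = 0.00832), a description in view of the filter. Col6a4 was 0.617 to 1.41 FPKM (median 1.34) in WT and 0.187 to 1.497 FPKM (median 0.623) in tumors labelled PD-1cKO, with 5 of 10 below every WT tumor. It fell by 0.95 (SE 0.25, adjusted p = 0.00668), and it did not pass after median-of-ratios scaling (-0.81, adjusted p = 0.0133), where 12 collagens were higher and 0 lower.

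Col6a1 ranged from 284.6 to 574.2 FPKM (median 406.6) in WT and from 261.7 to 768.9 FPKM (median 370.1) in tumors labelled PD-1cKO. Col6a2 ranged from 176.4 to 322.2 FPKM (median 287.6) and from 247.5 to 432.3 FPKM (median 305.0), and Col6a3 from 262.3 to 485 FPKM (median 408.1) and from 294.4 to 657.9 FPKM (median 404.1). The groups overlapped over most of their range for all 3 genes. The differences were -0.02 (95% interval -0.42 to 0.37) for Col6a1, which became 0.15 after median-of-ratios scaling, 0.25 (-0.05 to 0.54) for Col6a2 and 0.08 (-0.22 to 0.37) for Col6a3. Col15a1 missed the threshold, with a difference of 1.02 (adjusted p = 0.0118), as did Col6a5 with 1.42 (adjusted p = 0.0622), both named after their values were seen.

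Tumors labelled PD-1cKO were heterogeneous. Replicates 4, 5, 7 and 8 held the 4 highest values for 8 of the 11 collagens that rose: Col1a1, Col1a2, Col3a1, Col5a2, Col6a6, Col8a2, Col14a1 and Col24a1. For Col1a1 their values were 3204, 2058, 2374 and 2793 FPKM, and the next highest tumor had 1189 FPKM. For Col8a2 they were 31.2, 12.1, 14.4 and 34.2 FPKM, and the next had 6.89 FPKM. No collagen separated all 10 tumors labelled PD-1cKO from all 10 WT tumors, where 0.643% of all genes did so as higher and 0.305% as lower. Without PD-1cKO replicate 4, 5 or 7, or without WT replicate 9, 7 collagens were called in place of 12, and 13 to 15.5% of all genes in place of 21.3%. The 12 calls were not equally firm over 31 alternative fits, which changed a setting or left out 1 replicate. The call was lost in 19 of them for Col6a6, 18 each for Col24a1 and Col6a4, 12 for Col14a1 and 6 for Col8a2. For the other called collagens it was lost in at most 2.

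The sample identifiers in the labels fell into 3 runs of consecutive numbers that did not hold the groups evenly. The first run held 7 tumors labelled PD-1cKO only, the second 1 tumor labelled PD-1cKO with 9 WT tumors, and the third 2 tumors labelled PD-1cKO with 1 WT tumor. What the runs stand for is not stated. In the second run the tumor labelled PD-1cKO was above all 9 WT tumors for 11 of the 11 collagens that rose, for example 2793 against 248.9 to 651 FPKM for Col1a1. In the third run both tumors labelled PD-1cKO were above the WT tumor for 8 of 11, for example 797.3 and 856.2 against 434.7 FPKM for Col1a1, and not for Col5a2, Col6a6 and Col24a1. The 11 were called from these same tumors, so their counts describe the runs and cannot check them. Over all 33 expressed collagens the counts were 16 in the second run and 14 in the third. With run as a covariate, Col1a1 differed by 1.97 (adjusted p = 0.0257) and Col1a2 by 2.21 (adjusted p = 0.0259), and limma called 0 collagens and 0 genes in all at 0.01, with 14 of 33 collagens and 43.3% of all genes at an unadjusted p under 0.05.

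Cell type markers moved in the same comparison. Of the markers tested, 3 of 10 fibroblast, 3 of 8 endothelial, 3 of 8 pericyte and smooth muscle, 7 of 7 T cell and 5 of 8 macrophage genes rose in tumors labelled PD-1cKO. Over all genes 8.78% rose. With 1 of the 20 tumors left out in turn, the call was lost in 15 fits for Acta2, 10 for Tagln and 8 for Notch3. Fibroblast markers summed to 340.9 to 624.3 FPKM (median 458.3) in WT and 370.5 to 1201 FPKM (median 490.8) in tumors labelled PD-1cKO, endothelial markers to 40.2 to 76.6 (median 50.5) and 50.4 to 138.3 (median 85.1), and pericyte and smooth muscle markers to 67.7 to 101.7 (median 82.9) and 80.5 to 196.9 (median 123.1). Adipocyte markers ranged from 3.92 to 108.7 FPKM in WT and from 5.45 to 1300 FPKM in tumors labelled PD-1cKO, with 0 of 7 genes passing by limma and 5 at an unadjusted p under 0.05, and 0 of 8 skeletal muscle markers passed either threshold. Cartilage markers summed to at most 4.17 FPKM in any tumor. The part of these cells in the collagen differences was not tested.

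Antibody blockade of PD-1 gave fewer calls. At day 15, 1 of 31 collagens passed, Col14a1, where 8.25% of all 15062 genes passed, 6.69% as higher and 1.56% as lower. At an adjusted p under 0.05, where 24.5% of genes passed, 5 collagens did. Col14a1 was 2.91, 3.60, 1.38, 2.30 and 2.21 FPKM in the 5 isotype tumors and 12.1, 31.7, 26.4, 22.6 and 3.41 FPKM in the 5 PD-1 Ab tumors. The isotype tumors were all low, and replicate 5 of the PD-1 Ab group was the tumor within their range. Col14a1 rose by 2.63 (SE 0.52, adjusted p = 0.00557).

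Col8a2 and Col1a2 had the next largest differences. Col8a2 was 0.888, 0.692, 0.288, 0.737 and 0.574 FPKM after isotype and 3.56, 6.51, 6.13, 5.83 and 0.603 FPKM after PD-1 Ab. Again 4 tumors stood apart and replicate 5 did not, and the difference was 2.37 (SE 0.56, adjusted p = 0.0126). Col1a2 was 178, 339, 113.1, 121 and 164.7 FPKM after isotype and 316.5, 798.3, 616.8, 519.1 and 176.6 FPKM after PD-1 Ab, with 3 of 5 above every isotype tumor and a difference of 1.34 (SE 0.40, adjusted p = 0.0317).

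The partner chain Col1a1 was 388.9, 614.2, 321.2, 406.4 and 496.7 FPKM after isotype and 502.9, 948.9, 797.8, 687.1 and 453.4 FPKM after PD-1 Ab. Its groups overlapped, with a difference of 0.59 (95% interval 0.10 to 1.08, adjusted p = 0.0741). Col3a1 was 484.9, 904.2, 354, 556.4 and 586.6 FPKM against 549.4, 877.2, 787, 747.8 and 473.4 FPKM, a difference of 0.28 (-0.24 to 0.81, adjusted p = 0.407). Col5a1 and Col5a2 differed by 0.04 and 0.28, Col24a1 by -0.32, and Col6a6 did not reach the filter on low values, with at most 0.443 FPKM after PD-1 Ab.

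Basement membrane and collagen VI chains gave small differences of either sign. Col4a1 was 68.6, 97.1, 75.9, 80.4 and 49.4 FPKM after PD-1 Ab and Col4a2 was 46.7, 68.7, 51.9, 53.0 and 34.8 FPKM, against the isotype values above, with differences of 0.38 (-0.00 to 0.77, adjusted p = 0.127) and 0.46 (0.09 to 0.83, adjusted p = 0.0645). Col6a1 was 320.7, 333.7, 354.1, 376 and 379.2 FPKM, Col6a2 was 240.1, 229.8, 265, 288.6 and 270.1 FPKM and Col6a3 was 197.5, 199, 210, 198.1 and 255.4 FPKM after PD-1 Ab. Their differences were -0.31 (adjusted p = 0.131), -0.38 (adjusted p = 0.0542) and -0.01, the last turning to 0.05 when every sample was scaled to an equal sum over protein-coding genes. Col6a4 was 1.57, 1.81, 1.01, 1.24 and 0.998 FPKM after isotype and 0.932, 0.672, 0.697, 0.925 and 0.661 FPKM after PD-1 Ab. It was the only collagen whose groups did not overlap at day 15, where 6.12% of all genes were lower and 9.23% higher without overlap, and its difference of -0.68 had an adjusted p of 0.0521.

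Replicate 5 of the PD-1 Ab group decided the count at day 15. Without it, 6 collagens passed: Col14a1 (3.16), Col8a2 (2.96), Col1a2 (1.66) and Col15a1 (1.39) were higher, and Col7a1 (-0.80), the anchoring fibril collagen, and Col16a1 (-0.39) were lower. In the same fit 17% of all genes passed. The call for Col14a1 was lost, with the direction kept, without isotype replicate 1, 3, 4 or 5 or PD-1 Ab replicate 1, 2, 3 or 4 (differences of 2.36 to 2.71, adjusted p = 0.0116 to 0.0195). Marker sums of PD-1 Ab replicate 5 were the lowest of its group for T cells, endothelium, pericytes, adipocytes and macrophages. In the PD-1 Ab group T cell markers summed to 47.9 to 196.2 FPKM (median 143.9), endothelial markers to 38.4 to 138.2 (median 103.7) and adipocyte markers to 24.3 to 740.8 (median 483.8), against 11.7 to 24.3, 37.0 to 42.0 and 7.68 to 87.8 FPKM in the isotype group. Fibroblast markers summed to 347.4 to 874.7 FPKM (median 501.7) after isotype and to 407.3 to 1017 FPKM (median 609.4) after PD-1 Ab. By gene, 2 of 10 fibroblast, 1 of 8 endothelial, 3 of 8 pericyte, 1 of 7 adipocyte, 1 of 7 Schwann cell, 1 of 7 skeletal muscle (Acta1, by 3.98), 7 of 7 T cell and 6 of 8 macrophage markers rose, the last by 1.26 to 1.56. Over all genes 6.69% rose. Acta1 (isotype mean 0.061 FPKM) reached the filter only after PD-1 Ab and had to be the higher there. Macrophage markers summed to 807.2 to 1290 FPKM after isotype and to 1502 to 3129 FPKM after PD-1 Ab. Their part in the collagen differences was not tested.

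At day 11, limma called 0 of 29 collagens and 0% of all 14556 genes, and 0 collagens against 895 genes had an unadjusted p under 0.05. Col14a1 was 0.451, 2.23, 2.35, 3.63 and 2.25 FPKM after isotype and 2.44, 9.64, 3.64, 3.71 and 3.25 FPKM after PD-1 Ab, a difference of 1.09 (95% interval -0.02 to 2.19, adjusted p = 0.825). Col1a2 was 49.6, 221.8, 139.3, 182.3 and 297.7 FPKM against 457.5, 267, 237, 213.7 and 242.7 FPKM, a difference of 0.83 (-0.07 to 1.74). The lowest value of both was that of isotype replicate 1, the tumor with the high mitochondrial share. Over the 29 collagens the median difference was 0.46, beside 0.26 over all genes, and it was -0.04 beside -0.05 with equal sums over protein-coding genes and without that tumor.

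**Figure D3:**
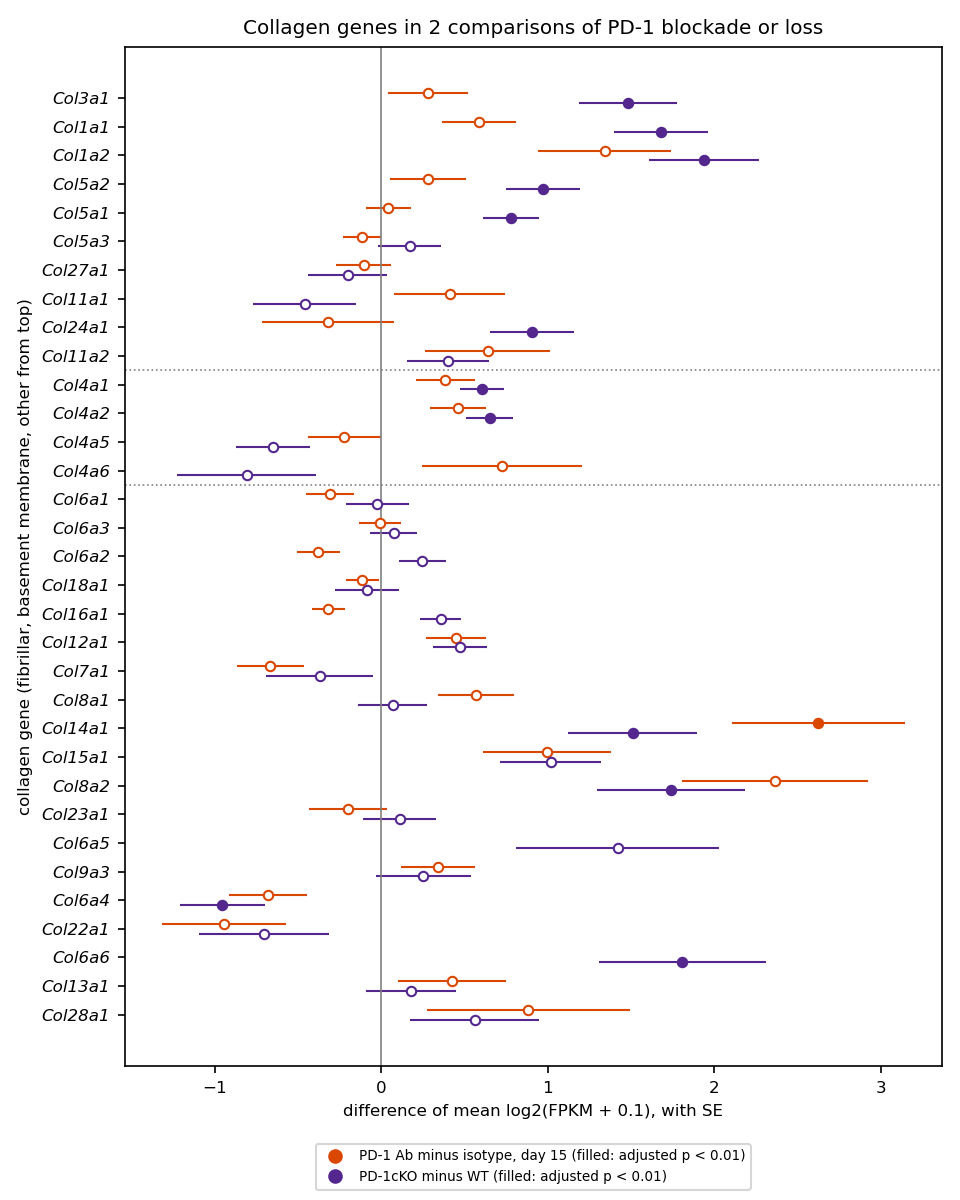
Difference of mean log2(FPKM + 0.1) with its standard error for the expressed collagens, PD-1 Ab minus isotype at day 15 and PD-1cKO minus WT, with filled points for an adjusted p under 0.01. Filled points are Col14a1 alone at day 15 (2.63) and 12 collagens in the PD-1cKO study, from 1.94 for Col1a2 to -0.95 for Col6a4.

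The 2 responses were then set against each other, as the day 15 difference minus the PD-1cKO difference. By limma 0 of 33 collagens passed, where 0.0975% of all 16404 genes did (0.0853% higher, 0.0122% lower), and 7 collagens had an unadjusted p under 0.05, as had 15.8% of all genes. Of these 7, Col16a1 had the lowest adjusted p, with -0.67 (95% interval -1.06 to -0.29, adjusted p = 0.0874). Col6a2 was at -0.62 (adjusted p = 0.188), and Col4a6 went the other way, at 1.53 (adjusted p = 0.28). The estimates were lower after PD-1 Ab for Col3a1 by -1.20 (95% interval -2.16 to -0.25, adjusted p = 0.227) and Col1a1 by -1.09 (-2.01 to -0.18, adjusted p = 0.244). They were also lower for Col24a1 by -1.23 (-2.15 to -0.30, adjusted p = 0.2) and Col5a1 by -0.74 (-1.27 to -0.21, adjusted p = 0.185). These fibrillar collagens had been called as higher from the same PD-1cKO values, which favors a lower estimate here, so their sign is a description only. For Col1a2 the estimate was -0.60 (-1.77 to 0.58), for Col14a1 1.116 (-0.31 to 2.54) and for Col8a2 0.63 (-0.97 to 2.22). Day, agent and study differ together between the 2 responses and cannot be told apart. The day 15 response minus the day 11 response gave 0 of 32 collagens and 0% of all genes, with 0 collagens and 1182 genes at an unadjusted p under 0.05.

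The class make-up of collagen RNA was described per sample, with no test. All collagens summed to 617.5, 648.8 and 673.5 FPKM in the cultures, of which fibrillar collagens made up 15.1 to 15.3%, basement membrane collagens 14.2 to 14.5% and the rest the remainder. In baseline tumors the fibrillar share was 42.0, 44.2 and 44.7%. It was 46.2 to 55.4% (median 48.3) in isotype and 50.1 to 68.4% (median 62.4) in PD-1 Ab tumors of day 15, and 47.9 to 61.2% (median 52.9) and 53.2 to 62.0% (median 56.4) at day 11.

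In the PD-1cKO study the share was 46.4 to 63.1% (median 53.5) in WT and 59.7 to 86.6% (median 72.7) in tumors labelled PD-1cKO. The summed collagen level was 2247 to 4141 FPKM (median 3460) in WT and 4065 to 14990 FPKM (median 6408) in tumors labelled PD-1cKO, so the highest WT tumor lay just above the lowest tumor labelled PD-1cKO. Collagens made up 0.603 to 1.18% of protein-coding nuclear FPKM in WT and 1.24 to 5.12% in tumors labelled PD-1cKO, with no overlap on this scale. Basement membrane collagens, the chains of collagen IV alone, were 1.51 to 4.81% of collagen FPKM over all 43 tumors.

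**Figure D4:**
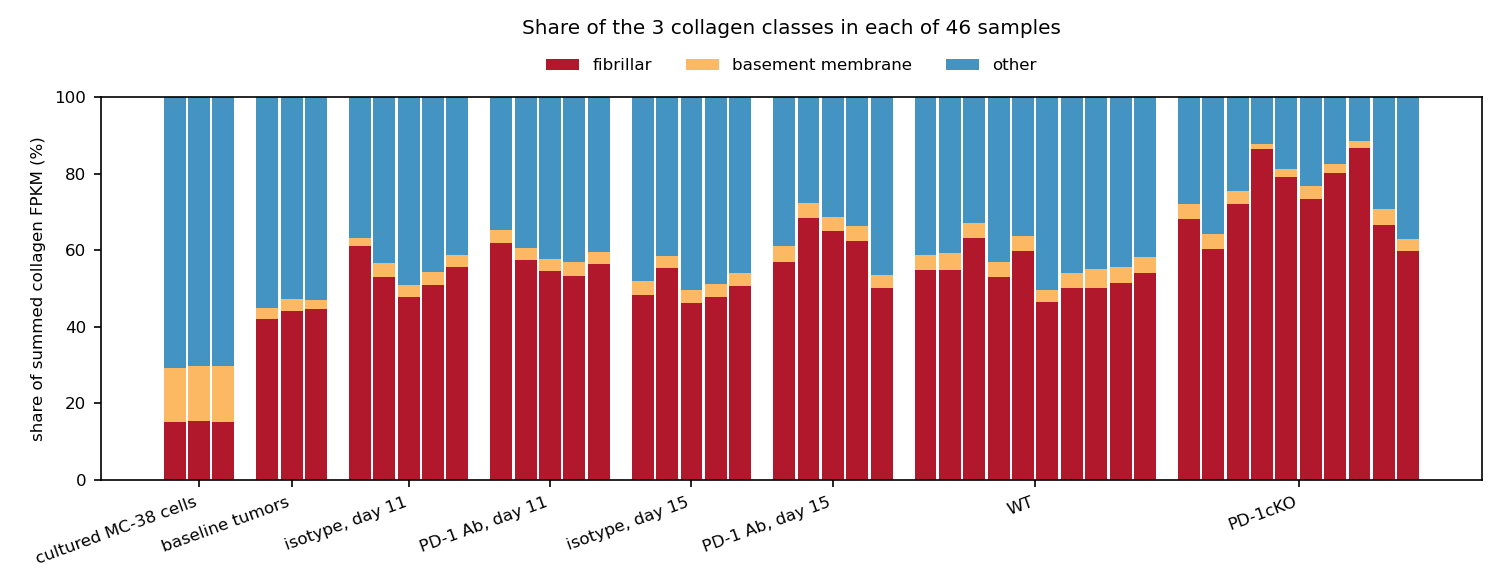
Share of summed collagen FPKM (percent) held by fibrillar, basement membrane and other collagens in each of the 46 samples, by group. Fibrillar collagens make up 15.1 to 15.3% in cultured cells and 42.0% or more in every tumor, with 86.6% in the highest tumor labelled PD-1cKO.

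Ratios between chains of the same protein do not depend on the scaling of a sample. Collagen I is commonly built from both Col1a1 and Col1a2 chains. The ratio of Col1a1 to Col1a2 was 5.92 to 7.21 in the cultures and 3.02, 3.25 and 5.82 in baseline tumors. It was 1.81 to 3.36 (median 2.84) in isotype and 1.19 to 2.57 (median 1.32) in PD-1 Ab tumors of day 15, with replicate 5 highest after PD-1 Ab, and 0.896 to 1.74 (median 1.19) in WT and 0.824 to 1.25 (median 1.01) in tumors labelled PD-1cKO. Thus Col1a2 was far below Col1a1 in culture and near it in the PD-1cKO study.

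Col4a1 and Col4a2, which share the bases in capitals above, kept a narrower ratio. It was 1.52 to 1.59 in the cultures and 1.26 to 2.18 over the 43 tumors, where the highest value was that of isotype replicate 1 at day 11. The ratio of Col6a1 to Col6a2 was 2.52 to 2.64 in the cultures and 0.969 to 1.82 in the tumors. Col4a1 stood at 6.4 to 7.65 times Col1a1 in culture and at 0.0403 to 0.220 times in tumors.

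**Figure D5:**
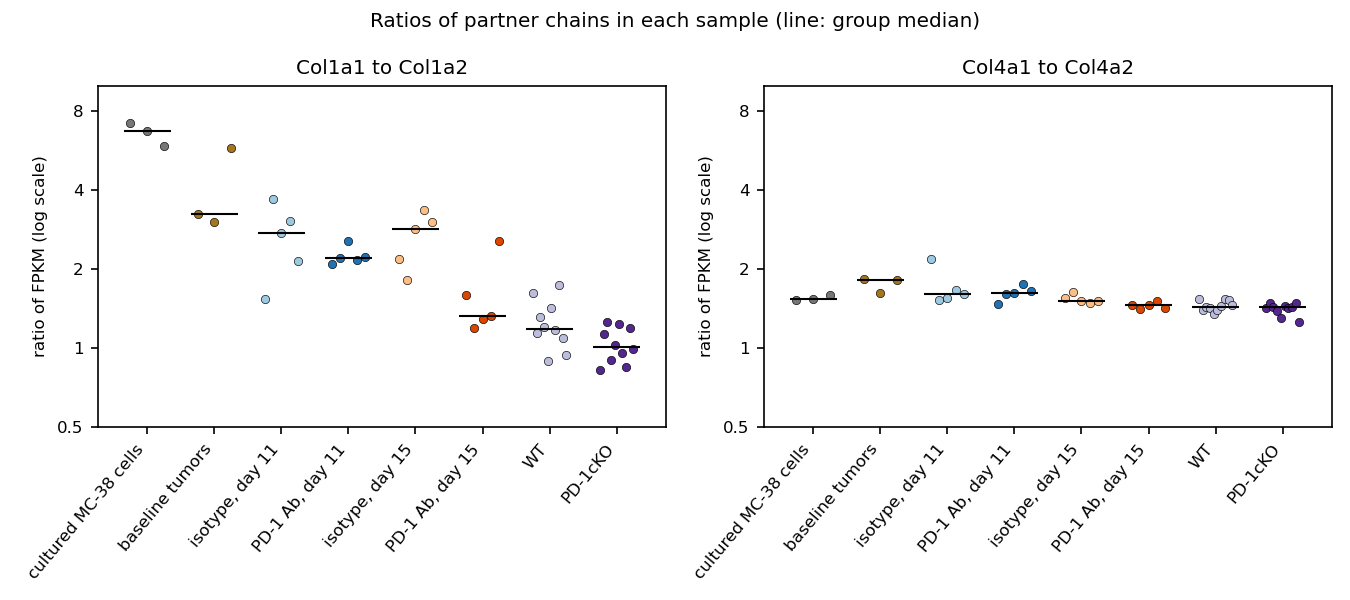
Ratio of Col1a1 to Col1a2 (left) and of Col4a1 to Col4a2 (right) FPKM in each sample, on log axes of the same range, with a line at the group median. The collagen I ratio has a median of 6.74 in cultured cells and of 1.01 in tumors labelled PD-1cKO, while the collagen IV ratio lies between 1.26 and 2.18 in every tumor.

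Genes that act on collagen were counted in 5 lists. Over all genes, 20.2% rose and 16.8% fell in isotype tumors of day 15 against culture. In the PD-1cKO study these shares were 8.78% and 12.6%, and after PD-1 Ab at day 15 they were 6.69% and 1.56%. The list counts are a description, and those near these shares say nothing particular about the list. Of 17 enzymes and chaperones of collagen folding and modification, 13 rose and 1 fell in isotype tumors of day 15 against culture, led by P4ha2 (1.87), a subunit of prolyl 4-hydroxylase. In tumors labelled PD-1cKO 1 of 17 rose, the lysyl hydroxylase Plod1 (0.70), and after PD-1 Ab at day 15 0 rose and 1 fell, the chaperone Fkbp10 (-0.57), whose call was lost without isotype replicate 5 or PD-1 Ab replicate 1, 2 or 3 (adjusted p up to 0.0128). The list medians of -0.16 and -0.20 stood beside -0.20 and -0.04 over all genes.

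Enzymes that process and crosslink collagen outside the cell numbered 12 to 13 tested genes. Against culture 9 rose and 2 fell, and Lox, a lysyl oxidase that crosslinks fibrils, rose by 4.83. Lox, Loxl2 and Adamts2 were below the filter in culture (means 0.127 to 0.177 FPKM), so they had to be the higher in tumors. In tumors labelled PD-1cKO 3 of 13 rose: Adamts2 (1.89), which trims procollagen, and the lysyl oxidases Loxl2 (1.74) and Loxl1 (1.115). After PD-1 Ab at day 15, 2 of 13 rose, Loxl2 (1.88) and the transglutaminase Tgm2 (1.48). The call for Loxl2 at day 15 was lost without each single replicate other than PD-1 Ab replicate 5 (adjusted p up to 0.027), while Tgm2 was called without each of the 10.

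Small proteoglycans that bind fibrils rose against culture in 8 of 8 cases, led by Bgn (5.77). Lum, Aspn, Podn, Fmod, Prelp and Ogn had culture means of 0.0176 to 0.137 FPKM. They reached the 0.5 FPKM filter only in tumors, where they had to be the higher. In tumors labelled PD-1cKO Lum (2.02), which is also among the fibroblast markers, and Podn (1.24) rose among 8, and after PD-1 Ab at day 15 Podn (2.15) rose among 8. Podn lost its day 15 call without each single replicate other than PD-1 Ab replicate 5 (adjusted p up to 0.0319), and its PD-1cKO call without any of 11 of the 20 tumors, WT replicates 1, 2, 4, 6, 7, 9 and 10 and PD-1cKO replicates 4, 5, 7 and 8 (adjusted p up to 0.0151). Of the laminins, nidogens and other basement membrane partners, 4 rose and 1 fell of 10 against culture, with Lama4 (7.24), a laminin chain of vessels, highest and Lama5 (-2.06) lower. Lama4 and Nid1 were below the filter in culture (means 0.0767 and 0.0101 FPKM) and had to be the higher in tumors. In tumors labelled PD-1cKO the nidogen Nid1 (1.47) and Lamb3 (1.48) rose among 12, and after PD-1 Ab at day 15 0 of 11 passed, with 3 at an unadjusted p under 0.05. Lamb3 (WT mean 0.239 FPKM) reached the filter only in tumors labelled PD-1cKO and had to be the higher there.

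Collagen receptors were the last list. Itga11, the integrin chain that binds fibrillar collagen on fibroblasts, rose in all 3 comparisons: by 2.37 against culture, by 1.56 in tumors labelled PD-1cKO and by 1.96 after PD-1 Ab at day 15. Against culture it had to be the higher in tumors, since its culture mean of 0.0483 FPKM was below the filter. The day 15 call for Itga11 was lost without each single replicate other than PD-1 Ab replicate 5 (adjusted p up to 0.0211), and the PD-1cKO call without WT replicate 6 or PD-1cKO replicate 5 or 7 (adjusted p up to 0.0104). Lair1, an inhibitory collagen receptor of leukocytes, rose against culture (7.23) and after PD-1 Ab at day 15 (1.16), where macrophage and T cell markers rose too and their part was not tested. Lair1 was also below the filter in culture (mean 0.0036 FPKM). In tumors labelled PD-1cKO the uptake receptor Mrc2 rose (1.18) and Itgb1 fell by 0.76. The call for Mrc2 was lost without any of WT replicates 6, 7, 8 and 9 and PD-1cKO replicates 4, 5, 7 and 8 (adjusted p up to 0.0126), and that for Itgb1 without PD-1cKO replicate 7 (adjusted p = 0.0103). At day 11 limma called 0 of the 55 genes tested in the 5 lists after PD-1 Ab, with 7 at an unadjusted p under 0.05.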

How the data were processed

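The authors sequenced stranded total RNA after ribosomal depletion as 50-base read pairs, aligned them to Mouse.B38 with the Omicsoft aligner, allowing 2 mismatches, and deposited FPKM for the genes of Ensembl release 86. Counts were tested by the authors, but only FPKM were used here, so the depth is unknown. Genes were matched to GENCODE M21 (GRCm38) for 99.26% of identifiers. The members and the gene lists were chosen with earlier results of these data known.

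Each comparison used the samples of its groups. Only genes whose group mean reached 0.5 FPKM in 1 of the compared groups entered the fit on log2(FPKM + 0.1) with limma 3.58.1 in R 4.3.3 (lmFit, eBayes with a trend), adjusted by Benjamini-Hochberg and called at an adjusted p under 0.01. A fold change on this scale understates that of low genes. Day 15 and PD-1cKO responses were compared as a contrast of 4 groups. The code was tested on simulated data.

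Values are given for the 6 collagens highest over tumors, Col4a1, Col4a2 and members called after PD-1 Ab or in the PD-1cKO study (at most 10 each by size), for the 3 highest and 3 lowest called members elsewhere, and for at most 4 called genes of each list. At most 4.87% of the 50-base words of a collagen's transcripts occurred in another gene (3.7% for Col6a6). Alternatives were 1 FPKM added, filters at 1 FPKM and none, 3 scalings, all 8 groups in 1 fit, no trend, array weights, identifier runs, replicate blocks and leaving out each replicate; equal sums without the mitochondria-rich tumor were added after seeing the data. Figures were drawn with matplotlib 3.10.9 in Python 3.11.15.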

Additional observations from a re-analysis of the deposited data

Results flagged for a closer look

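Of 132 collagen values, chain ratios and mitochondrial shares examined in groups of 5 or 10 samples, 23 had a sample set apart from the others of its group by Dixon's criterion (17.4%), which chance alone meets in about 1 of 20 groups. The values below are log2(FPKM + 0.1) for genes and log2 for ratios.

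Replicate 1 of the isotype group at day 11 held 9 of the 23. It was lowest for Col14a1 (-0.86, others from 1.22), Col4a2 (2.18, others from 4.93), Col5a1 (3.70, others from 6.42), Col6a1 (6.55, others from 8.69), Col6a2 (5.79, others from 8.24) and Col6a3 (5.79, others from 8.05), and highest for the ratio of Col3a1 to Col1a1 (1.80), the ratio of Col4a1 to Col4a2 (1.13) and the mitochondrial share (54.6%, others up to 4.31%).

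In the PD-1 Ab group of day 11, replicate 1 was highest for Col3a1 (10.28) and Col5a2 (7.32), and replicate 4 was highest for the ratios of Col3a1 to Col1a1 (0.73) and Col4a1 to Col1a1 (-2.69) and for the mitochondrial share (4.44%). In the PD-1 Ab group of day 15, replicate 5 was lowest for Col8a2 (-0.51, others from 1.87) and highest for Col6a3 (8.00), and replicate 4 had the lowest mitochondrial share (2.89%). Isotype replicate 2 of day 15 had the highest ratio of Col6a1 to Col6a2 (0.49).

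Among WT tumors, replicate 9 was lowest for Col5a1 (5.86) and Col6a2 (7.46), replicate 3 was lowest for Col6a4 (-0.48) and replicate 8 had the highest mitochondrial share (3.79%). Replicate 10 of the tumors labelled PD-1cKO had the highest ratio of Col6a1 to Col6a2 (0.84, others up to 0.35).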

How the results depend on the processing

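Depth was not at hand, so precision rests on the replicates alone. For named genes, 664 of 805 alternatives in the PD-1cKO study kept direction and side of the threshold, 379 of 459 at day 15, 521 of 557 for isotype tumors and 487 of 512 for baseline tumors against culture. These counts pool called genes with genes that were not called. Of 20 alternatives at day 15, the call was kept in 9 for Col14a1 and Itga11, 6 for Podn and 8 for Loxl2. It was kept in 14 for Fkbp10 and in all 20 for Lair1 and Tgm2. Of the 12 collagens called in the PD-1cKO study, 6 passed with a 2-fold limit (8.07% of all genes) and 0 with the identifier runs as a covariate (0%). The single call at day 15 became 5 of 31 at an adjusted p under 0.05 (24.5% of all genes), 2 with all 8 groups in 1 fit (6.13%), 12 with array weights (34.7%), and 0 with no filter (2.2%), with no trend (6.32%) or with the replicate block (2.27%). Isotype day 15 against baseline gave 2 of 28 at 0.05 (3.05%), 1 with no trend (0.555%) and 4 with array weights (5.05%), and array weights called 1 collagen in each difference of responses (5.72 and 6.85%). Leaving out 1 replicate at a time gave 7 to 14 collagens in the PD-1cKO study (13 to 32.3% of all genes), 0 to 6 at day 15 (2.8 to 17%, 0 without isotype replicate 1, 4 or 5 or PD-1 Ab replicate 1, 2, 3 or 4), 0 to 1 for isotype day 15 against baseline, 20 to 25 and 19 to 24 against culture, and 0 in the 4 other comparisons.

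Direction turned for Col6a3 at day 15 (0.0095 with upper-quartile scaling, 0.047 with equal sums, -0.086 to 0.075 leaving out replicates), Col5a1 at day 15 (-0.028 to 0.14 leaving out replicates), Col6a1 in the PD-1cKO study (0.15, 0.16 and 0.11 with median-of-ratios, upper-quartile and equal-sum scaling, -0.13 to 0.040 leaving out replicates) and Col4a2 in baseline tumors against culture (-0.14 to 0.036, turned without baseline replicate 1). In the difference of responses array weights turned Col1a2 (0.046), Col6a4 (-0.066) and Col6a6 (0.16). The cause was not tested.

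Median class sums in FPKM moved by more than 1 SD with median-of-ratios and equal-sum scaling: in cultures to 76.4 and 85.9 (fibrillar), 71.9 and 80.8 (basement membrane) and 357 and 401.3 (other), for basement membrane collagens to 63.9 and 66.3 in baseline tumors, and for other collagens to 1132 and 1127 in isotype and 1036 and 1044 in PD-1 Ab tumors of day 15. Median-of-ratios scaling alone moved basement membrane collagens to 81.8 in isotype tumors of day 15 and to 260.2 in tumors labelled PD-1cKO, and other collagens to 2116 in the latter.

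The labels do not state a pairing, and samples with the same replicate number did not deviate together (correlations of -0.21 to 0.16 across genes). With the replicate block, 8 collagens passed in the PD-1cKO study (12.5% of all genes), 0 at day 15, 20 and 19 against culture, and 0 in the 5 other comparisons.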
